A study of Mus musculus with 4 samples.

Results

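Expression was examined for 7 genes of the photoreceptor outer segment and of the matrix around it, Prph2, Rom1, Prom1, Cdhr1, Fscn2, Impg1 and Impg2, in mouse eyes collected at midday either after a morning of light or after a prolonged night. The genes were taken by symbol from a table of 22863 genes, were grouped by what their proteins do, and all 7 were among the 17784 genes tested. Fscn2 was the only one of the 7 that changed by the test used, being 1.31-fold higher after the morning of light. The other 6 differed by 14% or less between the conditions, and none of them passed the test. The call of Fscn2 was close to the threshold and was lost in several alternative fits. Of all genes tested, 8.51% passed. RNA-seq was performed on 4 samples of polyadenylated RNA from C3H/f+/+ mice, a melatonin-proficient strain that lacks the retinal degeneration allele common in C3H mice. Each sample pooled the 4 eyes of a female and a male mouse and consisted of retina, retinal pigment epithelium (RPE), choroid and posterior sclera, the anterior segment and lens having been cut away in the dark. The 2 objective day samples came from mice that received light in the morning and then 1 hour of darkness before collection 6 hours after lights-on. The 2 subjective day samples came from mice kept in darkness for 18 hours and collected at the same hour of the predicted cycle (elsewhere in the sources 30 hours is stated). Mice of both conditions had been housed under 12 hours of light and 12 hours of darkness, and they differ in light on the day of collection, not in genotype. The ages of the mice used for RNA-seq were not given in the sources used here.

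The rod outer segment is a stack of membrane discs that is built at its base, at the connecting cilium, and shed at its tip, where the RPE engulfs the shed discs. Prph2 (peripherin) and Rom1 are related tetraspanins that assemble with each other along the disc rim and hold its sharp curve. Prom1 (prominin) and Cdhr1 (the photoreceptor cadherin) lie at the edges of newly forming discs at the base, and Fscn2 (retinal fascin) bundles actin filaments. Impg1 and Impg2 are the proteoglycans of the interphotoreceptor matrix, the gel that fills the space between photoreceptors and RPE. Both bind hyaluronan; Impg1 is secreted and Impg2 spans the membrane.

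In GRCm38 (GENCODE M21), the 7 genes lie on 7 chromosomes. Prph2 (ENSMUSG00000023978) is at chr17:46910459-46924933 on the plus strand, and Rom1 (ENSMUSG00000071648) at chr19:8927391-8929356 on the minus strand. Prom1 (ENSMUSG00000029086) is at chr5:43993620-44102032 and Cdhr1 (ENSMUSG00000021803) at chr14:37077857-37098347, both on the minus strand. Fscn2 (ENSMUSG00000025380) is at chr11:120361534-120368168 on the plus strand. Impg1 (ENSMUSG00000032343) is at chr9:80313330-80465481 on the minus strand and Impg2 (ENSMUSG00000035270) at chr16:56204313-56273756 on the plus strand. The exons of Prom1 share 424 bases with Gm16401 on the opposite strand, and because the strand setting of the counting is not given, reads of the pair cannot be told apart there. Gm16401 itself had 336.54 and 337.5 adjusted counts in objective day, against 265.61 and 288.99 in subjective day, small beside the Prom1 values given below. No exon of the other 6 genes is shared with another gene.

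The promoters are shown for 4 of the genes: the rim partners Prph2 and Rom1, Fscn2, which changed, and Impg2, the one of the 7 with the lowest level per kilobase. No expression result was tested against promoter sequence. Each is the 250 bases before the RefSeq transcription start in GRCm38.p6, read 5′ to 3′ on the strand of the gene, with the letters TAATC, or GATTA on the other strand, in capitals. The windows are chr17:46910228-46910477 on the plus strand for Prph2, chr19:8929357-8929606 on the minus strand for Rom1, chr11:120361284-120361533 on the plus strand for Fscn2 and chr16:56204063-56204312 on the plus strand for Impg2.
Prph2: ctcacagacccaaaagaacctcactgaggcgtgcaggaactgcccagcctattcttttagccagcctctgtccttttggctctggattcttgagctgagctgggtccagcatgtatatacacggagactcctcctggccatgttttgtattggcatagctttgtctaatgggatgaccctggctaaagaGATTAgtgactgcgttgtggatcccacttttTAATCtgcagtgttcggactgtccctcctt
Rom1: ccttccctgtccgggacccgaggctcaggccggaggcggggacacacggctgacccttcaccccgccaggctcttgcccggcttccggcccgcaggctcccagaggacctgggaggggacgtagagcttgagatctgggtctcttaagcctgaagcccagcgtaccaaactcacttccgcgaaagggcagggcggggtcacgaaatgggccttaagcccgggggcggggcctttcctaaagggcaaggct
Fscn2: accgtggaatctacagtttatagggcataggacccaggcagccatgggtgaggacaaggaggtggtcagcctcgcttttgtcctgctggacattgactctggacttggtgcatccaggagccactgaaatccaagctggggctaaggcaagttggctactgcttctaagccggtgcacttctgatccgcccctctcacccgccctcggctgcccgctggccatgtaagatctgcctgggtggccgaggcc
Impg2: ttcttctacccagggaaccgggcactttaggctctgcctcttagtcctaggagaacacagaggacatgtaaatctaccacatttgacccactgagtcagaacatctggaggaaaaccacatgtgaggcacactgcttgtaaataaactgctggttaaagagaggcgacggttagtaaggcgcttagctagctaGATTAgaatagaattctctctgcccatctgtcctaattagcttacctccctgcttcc
The Crx core TAATCC (the letters bound by the photoreceptor homeobox factor Crx), the TGCTGA core of the Nrl element and the E-box CACGTG were searched on both strands in windows from 250 bases before to 50 bases after the start. None of the 3 was present in any of the 8 windows of the 7 genes, against 7.1%, 19.5% and 7.2% of 32851 mouse promoters of the same length. The shortened form TAATC, searched only once the full core had no match, was present for 4 of the 7 genes (Prph2, Impg1, Impg2 and the second start of Prom1), in 4 of 8 windows, against 22.0% of all promoters. In Prph2 it began 61 and 30 bases before the start and again 33 bases after it, and in Impg2 57 bases before the start. The promoters differed in composition, with 66.8% GC for Rom1, 59.2% for Fscn2, 49.6% for Prph2 and 46.8% for Impg2. These are matches of letters only.

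The values are adjusted counts, that is, read counts per gene that the authors brought to a common library size. The totals over all genes were 34905325 and 33278417 in objective day, against 35236783 and 34864745 in subjective day, but the depth before adjustment is not known, so no counting interval is given. Rod genes were abundant. The summed level of 11 rod genes such as Gnat1, Sag and Pde6b was 1431845 and 1290107 in objective day, against 1240429 and 1091568 in subjective day. By limma none of the 11 passed, 4 had an unadjusted p under 0.05, and their median log2 fold change was 0.22. Genes of lens and cornea lists were also present. Summed lens genes were at 46942 and 12094 in objective day, against 40776 and 5108 in subjective day, high in replicate 1 of both conditions. Cryaa made up most of that sum. Of the rest, Bfsp1 had 794 and 53.2 in objective day, against 1536 and 43.4 in subjective day, and Lim2 was near 0 in all 4 samples. Summed genes of a cornea list were at 3012 and 5482 in objective day, against 10452 and 10933 in subjective day. Krt12, the keratin particular to corneal epithelium, was near 0 in all 4 samples (1.78 and 12.5 in objective day, 3.99 and 7.67 in subjective day), so the sum rests on keratins and other genes that surface epithelia share. Of these lists, 4 of 5 tested genes of the cornea list were lower in objective day past the threshold and none of 5 tested lens genes passed. Of the genes of other cell types of the tissue, none of 9 cone genes passed, 1 of 6 RPE genes (Rpe65), 2 of 6 Müller glia genes (Aqp4 and Slc1a3) and 1 of 6 bipolar cell genes (Isl1) were lower in objective day, and none was higher. The parts of rod RNA content, lens and surface epithelium in the results that follow were not tested. In tissue of many cell types, fewer cells of a type and less RNA per cell cannot be told apart. The comparison was made with limma on log2(value + 1), with Benjamini-Hochberg adjustment over all 17784 genes. The samples of a condition were biological replicates by the study's methods. The p-values rest on the spread between 2 such pools a condition, combined with a variance prior fitted over all genes tested.

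Taken per kilobase of the longest transcript, the rim proteins were far above the rest. Prph2 averaged 60632 ± 6200 adjusted counts per kilobase (SD, n = 4 samples) and Rom1 52662 ± 6442. Their ranges over the 4 samples overlapped, but with this length Prph2 was above Rom1 within each of the 4 samples. With all annotated exons as the length the means were closer, at 53826 and 52662, and the order turned in objective day replicate 1. Cdhr1 came next at 11488 ± 698, with Rom1 4.58-fold above it and no overlap. Prom1 followed at 4960 ± 377 and Impg1 at 4252 ± 374, a second pair with overlapping ranges, whose order turned when all annotated exons were used as the length (2827 for Prom1 and 3931 for Impg1). Fscn2 at 1765 ± 291 and Impg2 at 1650 ± 85.4 were lowest and overlapped. The span of the 7 genes from Prph2 to Impg2 was 36.8-fold. The genes of the disc base, Cdhr1, Prom1 and Fscn2, were spread over this range without overlap. Of the matrix proteoglycans the secreted Impg1 was above the membrane-spanning Impg2 by 2.58-fold per kilobase. Prph2, Rom1 and Cdhr1 were among the 100 highest genes of the table by adjusted count.

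**Figure D1:**
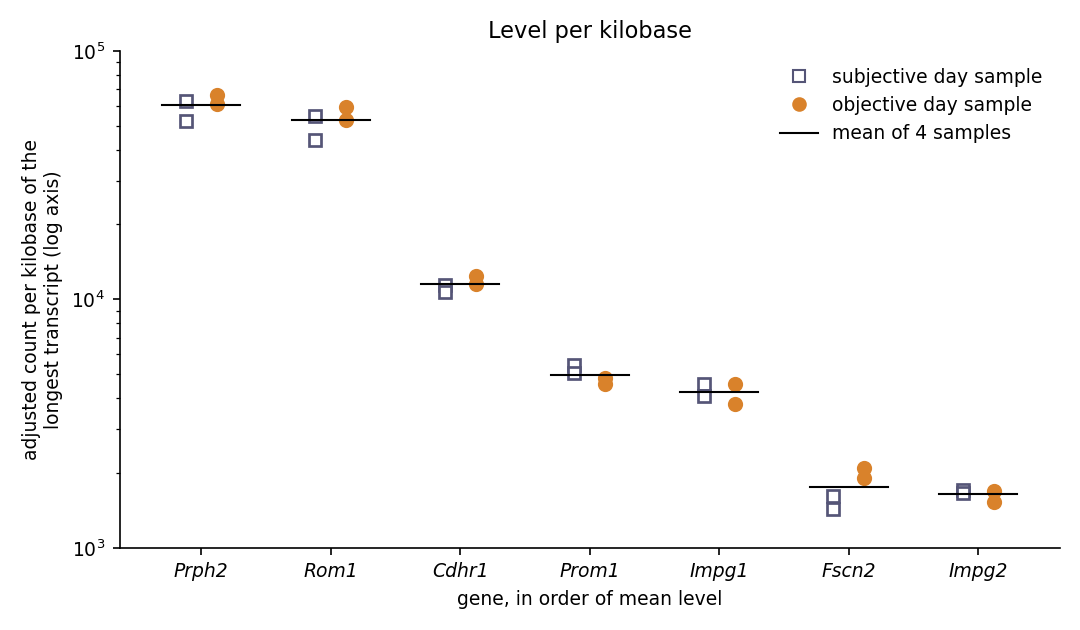
Adjusted count per kilobase of the longest transcript (log axis) for each of the 7 genes in order of mean level; squares are the 2 subjective day samples, circles the 2 objective day samples and lines the mean of the 4. Prph2 and Rom1 overlap at the top, at 60632 and 52662 on average, and Fscn2 and Impg2 overlap at the bottom, at 1765 and 1650.

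The genes of the disc rim were compared first. Prph2 had 177310 and 163240 adjusted counts in the 2 objective day samples, against 167350 and 138440 in the 2 subjective day samples. The groups overlapped, and the lowest value was that of subjective day replicate 2. The mean was 170275 ± 9949 (SD, n = 2) in objective day and 152895 ± 20442 in subjective day, a log2 fold change of 0.16 (SE 0.15, 95% interval -0.2 to 0.52; limma adjusted p = 0.557). Its partner Rom1 had 89974 and 79885 in objective day, against 83034 and 66663 in subjective day. The 4 samples stood in the same order as for Prph2, with objective day replicate 1 highest and subjective day replicate 2 lowest, and the groups again overlapped. The log2 fold change of Rom1 was 0.19 (SE 0.14, 95% interval -0.13 to 0.51; limma adjusted p = 0.439). In percent, the intervals ran from -12.7% to 43.2% for Prph2 and from -8.88% to 42.5% for Rom1. The gap between the subjective day replicates, 0.27 on the log2 scale for Prph2 and 0.32 for Rom1, exceeded the difference between conditions in both genes. Without subjective day replicate 2 the log2 fold changes were 0.024 for Prph2 and 0.03 for Rom1, without subjective day replicate 1 0.3 and 0.35, and without objective day replicate 1 0.1 for each. Rom1 was at 0.27 and Prph2 at 0.22 without objective day replicate 2.

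The ratio of the rim partners, which no scaling between samples can move, varied little. Prph2 over Rom1 was 1.97 and 2.04 in objective day, against 2.02 and 2.08 in subjective day as adjusted counts, and 1.12, 1.16, 1.15 and 1.18 per kilobase in the same order. The values of the conditions overlapped. The mean log2 ratio differed by -0.028 between objective and subjective day, against SDs of 0.037 and 0.031 within them (exact two-sided permutation test, p = 0.667, n = 2 against 2). With 2 samples a condition this test cannot give a p below 0.333.

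**Figure D2:**
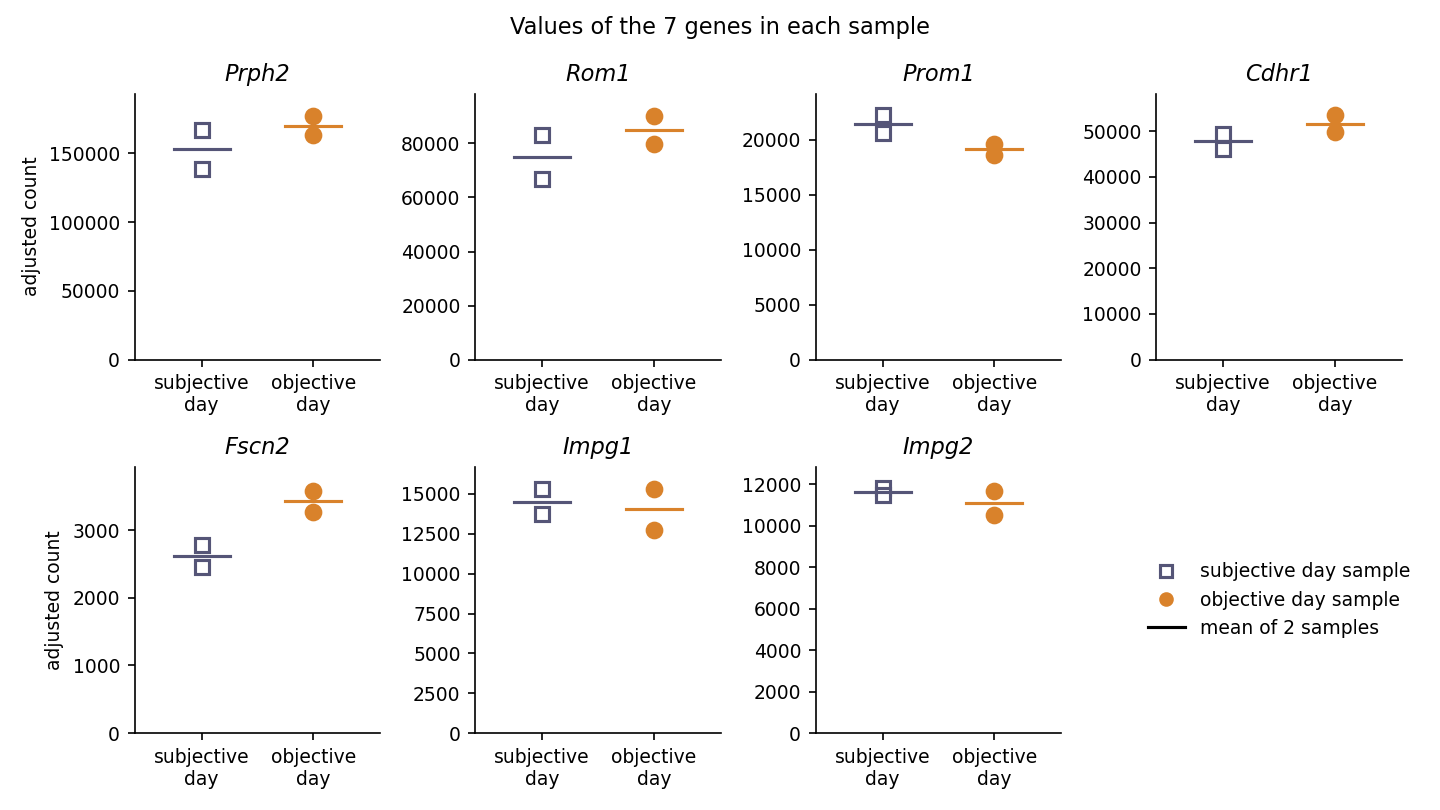
Adjusted count (linear axes from 0, one scale per gene) of the 7 genes in the 2 subjective day samples (squares) and the 2 objective day samples (circles); lines are the means of 2. Fscn2 and Cdhr1 are higher in both objective day samples, Prom1 is lower in both, and Prph2, Rom1, Impg1 and Impg2 overlap between the conditions.

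Fscn2, the actin-bundling protein, changed among the genes of the disc base. It had 3585 and 3265 adjusted counts in objective day, against 2780 and 2462 in subjective day. Both objective day samples were above both subjective day samples, with a gap wider than that between replicates of either condition. The mean was 3425 ± 226 (SD, n = 2) in objective day and 2621 ± 225 in subjective day, higher by 30.8% (95% interval 14.7% to 49.1%), with a log2 fold change of 0.39 (SE 0.081; limma adjusted p = 0.0294). The call was close to the threshold. It was lost in 5 of 13 alternative fits: with scaling to rod genes (0.19, limma adjusted p = 0.292), with the trend in GC content removed (0.27, limma adjusted p = 0.141), without objective day replicate 1 (0.32, adjusted p = 0.163), without subjective day replicate 2 (0.3, adjusted p = 0.0508) and with a constant variance prior (0.39, adjusted p = 0.189). With that prior no gene of the table passed by limma, and 20.2% had an unadjusted p under 0.05. The limma adjusted p of Fscn2 ranged from 0.00169 to 0.292 over the 13 fits. The fold change stayed above 0 in all of them, but a change of filter, variance prior or block cannot move it.

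Prom1, which lies at the edge of new discs, had 19657 and 18608 adjusted counts in objective day, against 22238 and 20623 in subjective day. Both objective day samples were below both subjective day samples. The mean was 19132 ± 742 (SD, n = 2) against 21430 ± 1142, a log2 fold change of -0.16 (SE 0.076, 95% interval -0.34 to 0.015; limma adjusted p = 0.232), which did not pass the test. Cdhr1, the cadherin at the same site, had 53592 and 49821 in objective day, against 49434 and 46210 in subjective day. Both objective day samples were above both subjective day samples, the nearest pair by less than the gap between replicates. The log2 fold change of Cdhr1 was 0.11 (SE 0.094, 95% interval -0.11 to 0.33; limma adjusted p = 0.499).

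The proteoglycans of the interphotoreceptor matrix did not pass the test with the authors' adjustment, with scaling to the rod genes or with the GC trend removed. Impg2 passed in 1 of 13 alternative fits, with the GC trend removed and the replicate number as a block together (0.19, limma adjusted p = 0.0216). Impg1 had 15321 and 12751 adjusted counts in objective day, against 15277 and 13726 in subjective day. The objective day samples were at once the highest and the lowest of the 4. Its log2 fold change was -0.051 (SE 0.1, 95% interval -0.29 to 0.19; limma adjusted p = 0.795), or -3.48% with an interval of -18.2% to 13.9%. Impg2 had 11670 and 10511 in objective day, against 11820 and 11463 in subjective day, overlapping as well. Its log2 fold change was -0.072 (SE 0.073, 95% interval -0.24 to 0.1; limma adjusted p = 0.588), or -4.85% with an interval of -15.5% to 7.17%. The ratio of Impg1 to Impg2 was 1.31 and 1.21 in objective day, against 1.29 and 1.2 in subjective day, a mean log2 difference of 0.021 against SDs of 0.081 and 0.078 (exact two-sided permutation test, p = 0.667). The ratio was higher in replicate 1 than in replicate 2 of both conditions.

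Of the 7 genes, 1 passed the test (14.3%), against 8.51% of all genes tested in either direction and 1.06% in the direction of Fscn2. At an unadjusted p under 0.05 the count was also 1 of 7, against 25.4% of all genes. The values of the conditions did not overlap for 3 of the 7 (42.9%), against 56.1% of all genes tested, a share below that of the table. Both objective day samples were above both others for 2 of them (27.9% of all genes) and below for 1 (28.2%). The median log2 fold change of the 7 was 0.11, with 4 above 0 and 3 below, and that of all genes tested was 0.015. All 7 genes were higher in replicate 1 than in replicate 2 in both conditions, by 0.079 to 0.26 on the log2 scale in objective day and by 0.044 to 0.32 in subjective day. For Prph2, Rom1, Impg1 and Impg2 the larger of these gaps exceeded the difference between conditions, and for Prom1, Cdhr1 and Fscn2 it did not. The summed rod genes were also higher in replicate 1 than in replicate 2 of both conditions. The share of all genes tested with that order is not given here.

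**Figure D3:**
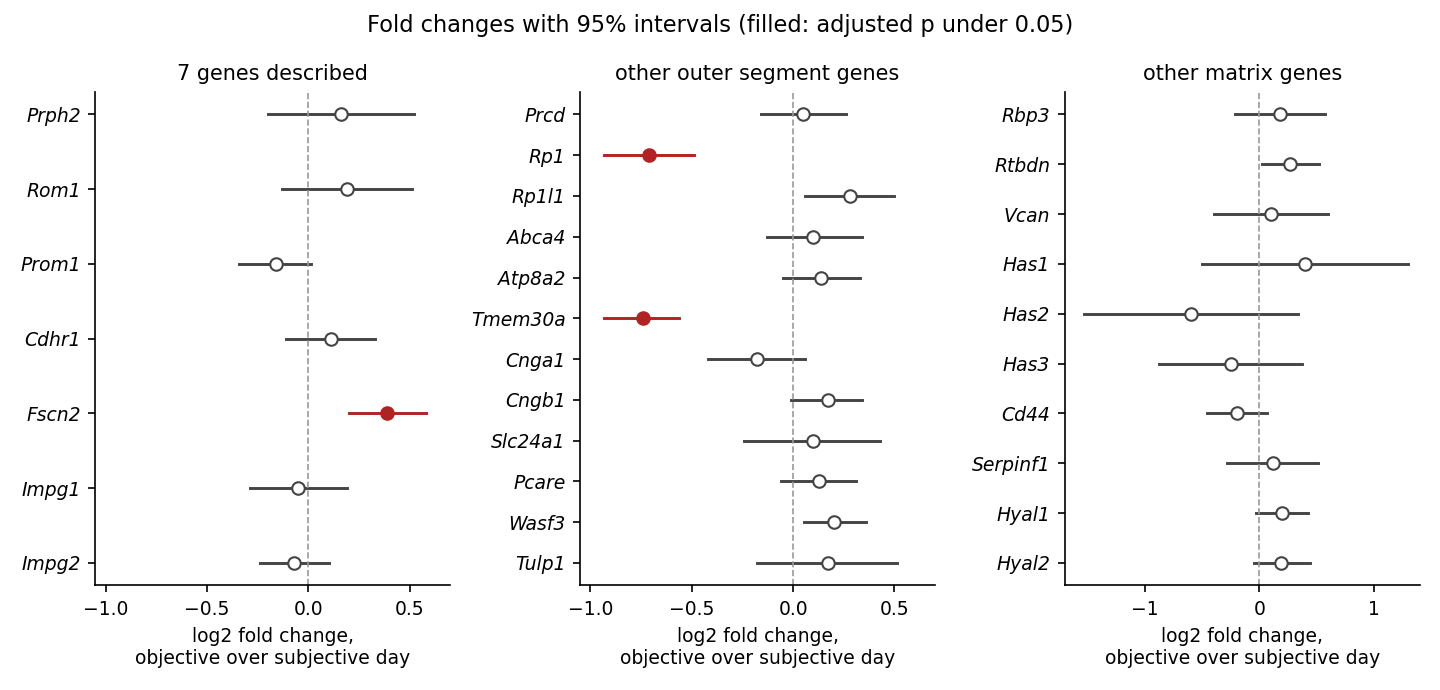
Log2 fold change of objective over subjective day with its 95% interval (limma) for the 7 genes, for 12 other outer segment genes and for 10 other matrix genes, with a wider axis in the third panel; filled red points have an adjusted p under 0.05. Fscn2 at 0.39 is filled among the 7, Rp1 at -0.71 and Tmem30a at -0.74 among the other outer segment genes, and no matrix gene is filled.

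The make-up of the group within each sample was also described. Together the 7 genes took 1.06% and 1.02% of all adjusted counts in objective day, against 0.999% and 0.859% in subjective day. Of their sum, Prph2 made up 47.8% and 48.3% in objective day, against 47.6% and 46.2% in subjective day, and Rom1 24.2% and 23.6% against 23.6% and 22.3%. The share of Prom1 was lower in both objective day samples, at 5.3% and 5.5%, than in the subjective day samples, at 6.32% and 6.88%. The share of Fscn2 was higher, at 0.966% in each objective day sample against 0.79% and 0.822%. Impg1 held 4.13% and 3.77% against 4.34% and 4.58%, and Impg2 3.14% and 3.11% against 3.36% and 3.83%, both lower in objective day without overlap. Cdhr1 overlapped, with 14.4% and 14.7% against 14.0% and 15.4%. Shares of a sum depend on each other. Those of Prph2 and Rom1, its largest parts, were higher in objective day without overlap (for Rom1 only before rounding). The adjusted counts of Impg1 and of Impg2 themselves overlapped between the conditions. Set against the mean log2 level of the other 6 genes in the same sample, the difference between objective and subjective day was 0.36 for Fscn2, -0.28 for Prom1, 0.09 for Prph2, 0.13 for Rom1, -0.15 for Impg1 and -0.18 for Impg2. The difference for Cdhr1 was 0.04. The exact two-sided permutation test gave p = 0.333, the smallest it can give, or more for each, and the share of all genes without overlap on this scale was not computed.

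The adjustment of the library size mattered for the direction of several values. When each sample was scaled to the mean log2 level of the 11 rod genes, the median log2 fold change of all genes moved from 0.015 to -0.18. The number of genes that passed was 24 higher and 2095 lower, compared with 189 higher and 1325 lower with the authors' adjustment and 107 higher and 116 lower with the GC trend removed. On that scale Prph2 was at -0.031, Rom1 at -0.0035 and Cdhr1 at -0.079, values whose sign had turned, with limma adjusted p from 0.703 to 0.991. Fscn2 was at 0.19 (SE 0.11; limma adjusted p = 0.292), no longer past the threshold, and Prom1 at -0.36 (SE 0.099; limma adjusted p = 0.0337), past it. The adjusted p of Prom1 ranged from 0.0337 to 0.819 over the 13 alternative fits. On the rod scale the rim pair was nearest to 0, and Prom1, Impg1 (-0.24) and Impg2 (-0.26) had the lowest values of the 7.

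The fold changes of the table also followed base composition. Over all genes tested the log2 fold change and the GC content of the longest transcript had a Spearman correlation of 0.58, across genes, which share their samples and are not independent. Prph2 (54.1% GC), Rom1 (57.1%), Cdhr1 (50.8%) and Fscn2 (59.1%) lay above the median GC content of 49.8% and had fold changes above 0. Prom1 (45.8%), Impg1 (45.3%) and Impg2 (42.4%) lay below it and had fold changes below 0. With the GC trend removed within each sample, Fscn2 had a log2 fold change of 0.27 (SE 0.07; limma adjusted p = 0.141) and none of the 7 passed, against 1.27% of all genes. On that scale Impg1 was at 0.065 and Impg2 at 0.19, above 0, and Prom1 at -0.063. Such a correction also takes away any difference between the conditions that follows GC content, and the part of GC content in these results was not tested further.

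**Figure D4:**
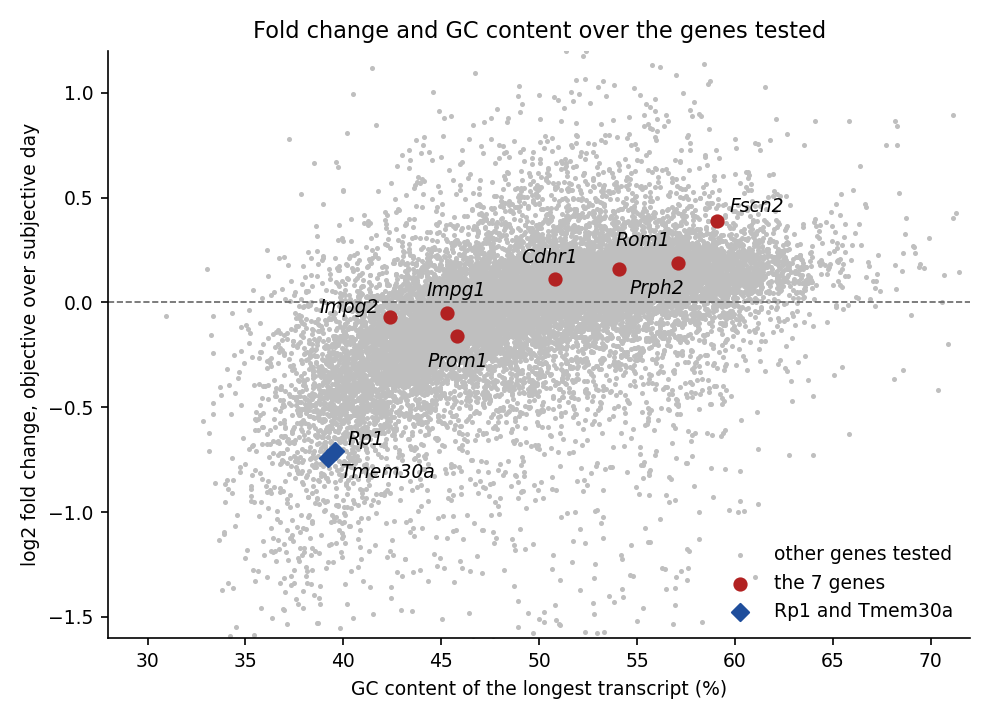
Log2 fold change of objective over subjective day against the GC content (%) of the longest transcript for the genes tested (grey), the 7 genes (red) and Rp1 and Tmem30a (blue diamonds); 107 of 17536 genes lie outside the axes. The 4 red points right of 50% GC are above 0 and the 3 left of it are below.

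Other genes of the outer segment gave a frame for these values. Of 12, 2 were lower in objective day past the threshold (16.7% against the 7.45% of all genes that fell), with 9 of 12 fold changes above 0 and a median of 0.11. Rp1, a microtubule-binding protein of the outer segment axoneme, had 42567 and 39651 adjusted counts in objective day, against 65369 and 68756 in subjective day. It fell to 41109 ± 2062 from 67062 ± 2395 (SD, n = 2 each), with a log2 fold change of -0.71 (SE 0.093; limma adjusted p = 0.00694). Tmem30a, the subunit that phospholipid flippases need, had 3961 and 3578 in objective day, against 5989 and 6644 in subjective day. It fell by 0.74 on the log2 scale (SE 0.079; limma adjusted p = 0.00558). For both genes the conditions were separated by far more than the replicates. Both have a low GC content, 39.6% and 39.2%, and with the GC trend removed they were at -0.26 (limma adjusted p = 0.299) and -0.27 (limma adjusted p = 0.13), no longer past the threshold. Neither call held with a constant variance prior (adjusted p = 0.126 for each). Over the 13 alternative fits the adjusted p ran from 0.000683 to 0.299 for Rp1 and from 0.000398 to 0.13 for Tmem30a.

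The remaining 10 outer segment genes did not pass, with adjusted p from 0.102 to 0.776. Atp8a2, the flippase that works with Tmem30a, was at 0.14 on the log2 scale with overlapping groups (limma adjusted p = 0.335), and at -0.054 when scaled to the rod genes. Rp1l1, a relative of Rp1 in the axoneme, was at 0.28 (limma adjusted p = 0.118). Wasf3, a regulator of actin branching, was at 0.2 (limma adjusted p = 0.102). The subunits of the rod channel gated by cyclic GMP were at -0.18 for Cnga1 (-0.37 when scaled to the rod genes, limma adjusted p = 0.0252) and 0.17 for Cngb1, and Slc24a1, the exchanger beside the channel, was at 0.096. Abca4, the rim transporter that clears retinoid from the disc, was at 0.1. Tulp1, which serves protein transport to the outer segment, was at 0.17, Pcare, an actin-associated protein of the ciliary base (listed as BC027072), at 0.13, and Prcd, a small disc protein (listed as Gm11744), at 0.048.

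Of 10 other genes of the matrix or of hyaluronan turnover, none passed limma's test, 1 had an unadjusted p under 0.05, 7 were above 0 and the median was 0.15. Rbp3, the retinoid carrier and most abundant of the list, had 256820 and 223460 adjusted counts in objective day, against 227540 and 196480 in subjective day, which overlapped (0.18, limma adjusted p = 0.55). Rtbdn, a flavin-binding protein of the matrix, had 27539 and 24751 in objective day, against 23710 and 19752 in subjective day. Its samples did not overlap, but it missed the threshold (0.27, limma adjusted p = 0.164). The hyaluronan receptor Cd44 was at -0.2 and the hyaluronan-binding proteoglycan Vcan at 0.098. The hyaluronan synthases Has1, Has2 and Has3 were at 0.4, -0.6 and -0.25, with few reads: Has2 had 11.3 and 17.3 adjusted counts in objective day, against 17.0 and 27.5 in subjective day. The hyaluronidases Hyal1 and Hyal2 were at 0.2 and 0.19, and Serpinf1 at 0.12.

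The genes whose 4 values most resembled the mean of the 7 were sought among 2479 genes at or above the level of Fscn2. The mean log2 deviation of the 7 was 0.113 and -0.033 in objective day, against 0.043 and -0.124 in subjective day, so replicate 1 was above replicate 2 in each condition. Elavl3 was nearest, at a Euclidean distance of 0.0055 over the 4 samples, followed by Optn (0.017), Erlin2 (0.02), Six3 (0.021) and Tubb4b (0.024), against a median distance of 0.18. Among the 7 themselves Cdhr1 was nearest to their mean (0.066) and Fscn2 farthest (0.31).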

How the data were processed

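Polyadenylated RNA of 4 eye samples, 2 of objective day and 2 of subjective day by GEO's labels, was copied with random hexamers, amplified for 12 PCR cycles and sequenced as single 50 bp reads in 1 lane. According to the submitters' processing notes and the study's methods, the tools were CASAVA 1.8, TopHat2 2.0.9, Bowtie2 2.1.0, HTSeq and edgeR, with Ensembl release 72. The strand setting, the filter and the normalization are not given in the sources used here. The deposited signal per gene and sample holds gene counts with decimals, which the authors had set to 1 shared library size. Whole reads could not be recovered from it for most genes, so no count test was run, and depth is not known. The deposited log2 fold changes, log2 CPM, p-values and FDR values of the authors' own comparison were not used. Every column of sample values was used.

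A gene was tested if 2 or more samples reached a value of 10. The test was limma (version 3.58.1, R 4.3.3) applied to log2(value + 1) of all 4 samples, its variance prior set to follow mean expression, with Benjamini-Hochberg adjustment at 0.05. Fold changes are on the log2(value + 1) scale, which understates those of low genes. The fit was also run on simulated counts, and the outcome is not given here. Level per kilobase, GC content (known for 98.6% of genes tested) and exon overlap came from GENCODE M21 (GRCm38). The GC trend was removed in each sample by local regression with a span of 0.3. Alternatives were scaling to 11 rod genes, other filters, pseudocounts of 0.5 and 10, a constant variance prior, GC trend removal, the replicate number as a block, and leaving out each sample. Figures were drawn with matplotlib 3.10.9.

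The text names the 7 genes, the genes of 2 lists of other outer segment and matrix genes, marker genes beside a result, and the 5 genes nearest in pattern. From the list of matrix genes, 1 planned gene is not reported here, and the counts leave it out. The 7 genes and all lists were chosen with earlier results of these data known, so their calls are not independent evidence. In the text, "rose", "fell" and "changed" refer to adjusted p under 0.05.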

Additional observations from a re-analysis of the deposited data

How the results depend on the processing

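Of the 7 genes, 1 passed with other filters, other pseudocounts and scaling to the rod genes (there Prom1 in place of Fscn2). None passed with a constant variance prior (0 genes of the table, with 3586 at an unadjusted p under 0.05, and 0 other outer segment genes) or with the GC trend removed (223 genes of the table, 107 higher and 116 lower, and 0 other outer segment genes). The labels number the samples 1 and 2 in each condition without saying that a number marks a shared batch, and the deviations of same-numbered samples had a correlation of 0.319. With the replicate number as a block, 3613 genes of the table passed (1282 higher, 2331 lower), 2 of the 7 (Fscn2, and Prom1 at -0.16, adjusted p = 0.0408), 6 other outer segment genes (3 higher, 3 lower) and 1 matrix gene, and with the block and GC trend removal together 1583 of 17536 genes (876 higher, 707 lower), 2 of the 7 (Fscn2, and Impg2 at 0.19, adjusted p = 0.0216), 4 (2 higher, 2 lower) and 1. Leaving out 1 sample gave 664 (without objective day replicate 2) to 2557 genes (without subjective day replicate 1), 0 to 1 of the 7, and 0 to 2 matrix genes; without objective day replicate 1, 736 genes passed. Scaling to the rod genes turned the median of the 7 to -0.079, with Prph2 at -0.031, Rom1 at -0.0035 and Cdhr1 at -0.079. GC trend removal turned Impg1 to 0.065 and Impg2 to 0.19, with or without the block, and leaving out 1 sample gave -0.18 to 0.081 for Impg1, -0.15 to 0.0037 for Impg2, 0.06 to 0.17 for Cdhr1, and 0.024 to 0.17 for the median of the 7, lowest without subjective day replicate 2 and highest without objective day replicate 2. Per kilobase, the mean share of Prph2 in the sum of the 7 was 44.1%, compared with 47.5%. The cause of these changes was not tested. TMM scaling and the edgeR quasi-likelihood and DESeq2 tests, which were planned, were not run because the values are not counts. With 2 samples a condition, differences of the size of the replicate gaps could not be resolved.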
